A study of Mus musculus with 2 samples.

Results

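The mRNAs of 10 apolipoprotein genes, Apoa1, Apoa2, Apoa4, Apoa5, Apob, Apoc1, Apoc2, Apoc3, Apoe and Apom, were examined in the newborn mouse liver. They were chosen by name, as apolipoproteins of the lipoprotein particles, with earlier results of these data known. Each was found by its symbol in the gene table of both livers. They are 10 of the 43346 Ensembl genes and have 35 of the 103639 Ensembl transcripts in the deposited tables. The study comprised 1 group of 2 B6NCrl mice, an inbred C57BL/6N strain, on postnatal day 0, with no treatment named in the labels. Each library was made from the whole liver of 1 pup, both pups had the same dam, and their sex was not collected. The labels give no genotype other than the strain. Each library was prepared from 10 ng of RNA above 200 nt in size, and they gave 42124582 expected counts (estimated reads per gene) for pup 1 and 41443673 for pup 2.

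Apolipoproteins are the proteins that coat lipoprotein particles, which carry triglyceride and cholesterol through blood. Apolipoprotein B is the structural protein of very-low-density lipoprotein and stays with its particle, whereas the smaller apolipoproteins can move between particles and act as activators or inhibitors of lipases and as ligands of receptors. Liver and intestine are the main sites of their synthesis. The newborn liver also makes blood cells, and at birth the pup turns from glucose supplied through the placenta to the fat of milk.

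The tissue label was checked on 6 hepatocyte markers, of which 6 were detected, and their summed level was 76382 TPM in pup 1 and 69338 TPM in pup 2. TPM is a level per transcript length, scaled to a common total in each library. The 7 erythroid markers summed to 143079 and 147432 TPM. The livers differed in markers of neighbouring organs. All 6 skeletal muscle markers and all 6 pancreas markers were at least 2-fold higher in pup 2, with summed levels of 50.2 against 758 TPM and of 2.12 against 105 TPM. In bulk tissue, fewer cells of a type and less RNA per cell cannot be told apart.

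The sequence that decides which protein Apob yields is shown first. In mouse liver a cytidine of the Apob mRNA can be deaminated by Apobec1, which turns a CAA glutamine codon into a stop codon and gives the short protein apoB-48 in place of apoB-100. On GRCm38 this codon, number 2179 of the reading frame, lies in the coding sequence of exon 26 of Apob on the plus strand, at transcript position 6666 of 13934, and its first base is at position 8008054 of chromosome 12. The stretch chr12:8007994-8008116 is printed 5′ to 3′ from the GENCODE M21 transcript, with the edited codon in capitals. The deposited tables count reads per transcript and do not record edited bases, so the edited share was not analysed here.
Apob editing site: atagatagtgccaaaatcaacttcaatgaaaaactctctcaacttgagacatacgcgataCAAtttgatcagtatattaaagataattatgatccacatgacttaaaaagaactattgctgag

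Stretches upstream of 3 genes are printed because they stand at the extremes of the results: Apoa1 had the highest level, Apob the lowest, and Apoa4 differed most between the littermates. They come from RefSeq on GRCm38.p6, where 8 of the 10 genes were matched, all but Apoc1 and Apoc3. All 3 lie on the plus strand, and each stretch stops at the base before the first annotated transcript. Apoa1 is chr9:46228380-46228579, Apoa4 is chr9:46240594-46240695 and Apob is chr12:7977427-7977647. Capitals mark matches to 5 motifs searched in the 250 bases before the RefSeq start.
Apoa1: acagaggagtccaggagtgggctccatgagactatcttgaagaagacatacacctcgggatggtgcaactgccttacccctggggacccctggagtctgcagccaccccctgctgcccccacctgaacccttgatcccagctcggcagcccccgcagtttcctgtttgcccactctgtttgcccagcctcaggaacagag
Apoa4: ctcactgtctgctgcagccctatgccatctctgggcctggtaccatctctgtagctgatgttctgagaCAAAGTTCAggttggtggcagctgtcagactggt
Apob: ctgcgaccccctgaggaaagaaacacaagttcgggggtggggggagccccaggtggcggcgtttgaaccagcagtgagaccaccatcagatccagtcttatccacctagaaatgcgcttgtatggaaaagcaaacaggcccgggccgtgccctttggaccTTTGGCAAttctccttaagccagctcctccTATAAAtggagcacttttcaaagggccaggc

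The Apoa4 stretch held CAAAGTTCA, a match to CAAAGTNCA, the type of site bound by HNF4, searched on both strands and present in 1.19% of the 32851 RefSeq promoters. The Apob stretch held TATAAA, the TATA box, searched on the gene's strand and present in 7.59% of promoters. It also held a match on the opposite strand to TTGCNNAA, a C/EBP type of site, searched on both strands and present in 9.56%. The other motifs, AGGTCA of nuclear receptors (14% of promoters, both strands) and the E-box CACGTG (6.02%, both strands), had no match in these windows, and Apoa1 matched none of the 5. The matches did not overlap each other. A match describes the letters only.

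Apoa1, Apoa2 and Apoe stood far above the other 7 genes. Apoa1, which forms the shell of high-density lipoprotein and activates the cholesterol-esterifying enzyme LCAT, measured 23872 TPM in pup 1 against 24077 in pup 2, a mean of 23975 ± 145 TPM (SD, n = 2). It ranked 5 among all genes in each liver. Apoa2, the second protein of high-density lipoprotein, was at 17811 and 18145 TPM, a mean of 17978 ± 236, and ranked 8. Apoe, a receptor ligand that clears remnant particles, was at 17437 and 17488 TPM, a mean of 17463 ± 36.4, and ranked 9. The littermates were close in all 3 genes, and no value of 1 gene overlapped that of another.

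Apom, a lipocalin that carries sphingosine 1-phosphate on high-density lipoprotein, was the lowest of those above 1000 TPM. Its level was 1067 and 1053 TPM, a mean of 1059.9 ± 9.79 TPM, at rank 106. In the annotation its neighbours on chromosome 17 are D17H6S53E, at a mean of 4.03 TPM, and Bag6, at 15.7 TPM.

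The C apolipoproteins, which regulate the hydrolysis of triglyceride in plasma, spread over an order of magnitude. Apoc1, an inhibitor of lipoprotein uptake and, in humans, of cholesteryl ester transfer, was at 4599 and 4757 TPM (4678 ± 112, SD, n = 2). Apoc2, the cofactor that lipoprotein lipase requires, was at 2913 and 2758 TPM (2835 ± 109.7). Apoc3, which inhibits lipoprotein lipase and remnant clearance, was at 468 and 388 TPM (428 ± 56.4). Apoc2, the activator, was therefore 6.65-fold above Apoc3, the inhibitor. Their log2 ratio of Apoc3 to Apoc2 was -2.64 in pup 1 and -2.83 in pup 2, so the difference exceeded the spread of these livers.

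The 3 remaining genes, Apoa5, Apoa4 and Apob, had moderate levels. Apoa5, which promotes the lipolysis of triglyceride by lipoprotein lipase, was at 509.5 and 566 TPM (538 ± 39.8). Apoa4, an apolipoprotein of chylomicrons and high-density lipoprotein, was at 370.0 and 222 TPM (296 ± 104), the widest relative spread of the 10. Apob was at 187 and 151 TPM (169 ± 25.9), with the higher value in pup 1.

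All 10 genes reached 100 TPM in both livers, a level reached by 8.23% of the 12711 genes tested (those whose mean TPM was at least 1). Of the 10, 6 reached 1000 TPM in both, against 0.865% of all genes. Because the 10 were chosen with earlier results of these data known, these counts describe the chosen genes and not apolipoproteins as a family. These levels rest on expected counts of 5940, for Apoc3 in pup 2, to 805685, for Apoa1 in pup 2.

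**Figure D1:**
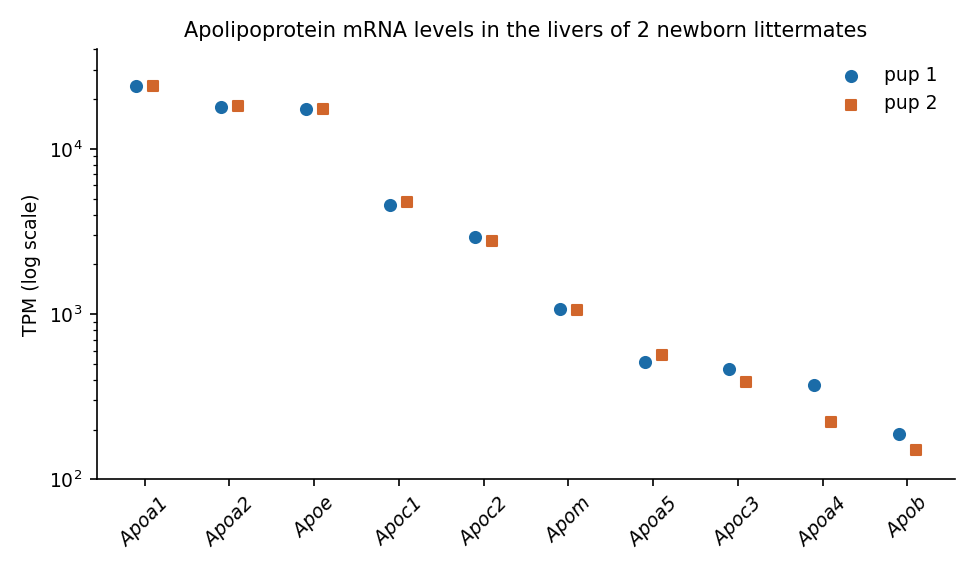
Level of each apolipoprotein mRNA in TPM (log scale), with a circle for pup 1 and a square for pup 2, ordered by mean level. The levels run from 24077 TPM for Apoa1 in pup 2 to 151 TPM for Apob in pup 2, and the points of Apoa4 are the farthest apart.

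The 10 genes together held 6.92% of all TPM in pup 1 and 6.96% in pup 2, a mean of 6.94% ± 0.0264 (SD, n = 2). Apoa1, Apoa2 and Apoe made up 85.6% ± 0.277 of that sum. Apoc1, Apoc2 and Apoc3 together held 0.794% of TPM, and Apoa4 with Apoa5 held 0.0834%. Shares of reads gave another weighting, because long mRNAs yield more reads per molecule. Of expected counts the 10 genes held 4.71% ± 0.071. Apob, whose long transcript is 13934 nt, held 0.0169% of TPM and 0.147% of expected counts. Apoa2, whose leading transcript is 492 nt, held 1.80% of TPM and 0.606% of expected counts. Ranked by reads, Apob stood above Apoc1 and Apoc2 in both livers, which it did not by level per length.

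**Figure D2:**
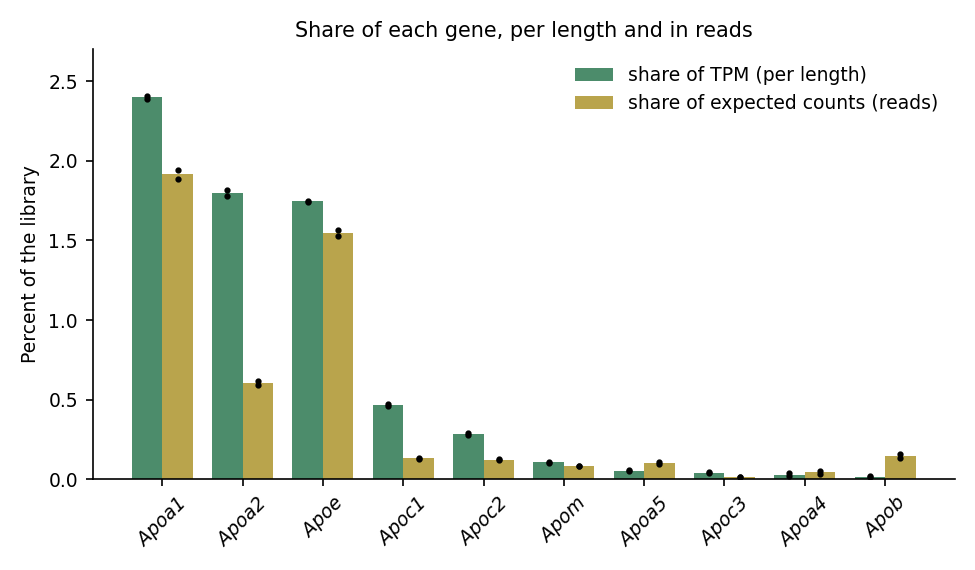
Percent of each library held by each gene, as mean bars over the 2 livers with a point for each pup, in green by TPM and in ochre by expected counts. Apoa2 loses most of its bar when reads are counted, from 1.80% to 0.606%, and Apob gains, from 0.0169% to 0.147%.

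Neighbours in the order of levels were called apart when both livers gave the same order and the mean log2 ratio lay more than 3 SD from 0. This held for 5 of the 9 neighbouring pairs: Apoa1 over Apoa2, Apoe over Apoc1, Apoc1 over Apoc2, Apoc2 over Apom and Apom over Apoa5. It did not hold for Apoa2 over Apoe, with a log2 ratio of 0.04 ± 0.02. Nor did it hold for Apoa5 over Apoc3 (0.33 ± 0.30), Apoc3 over Apoa4 (0.57 ± 0.33) or Apoa4 over Apob (0.77 ± 0.30). The order of the 4 lowest genes was the same in both livers, but each step was within 3 SD. An exact sign permutation over 2 livers cannot give a p below 0.5, so this is a rule of size with no p-value.

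Across the wider set of 13 listed pairs, 9 differed by more than the spread. The share of other gene pairs that pass this rule was not computed, here or for the neighbours. The pairs were chosen with earlier results known, so these counts describe the listed pairs only. Apoa1 exceeded Apob by 7.16 ± 0.23 on the log2 scale, or 143-fold, and Apoe exceeded Apob by 6.70 ± 0.23. Both ratios set an exchangeable apolipoprotein against the structural protein, which each particle carries singly. Apoa1 exceeded Apoa2 by only 0.42 ± 0.01, a small ratio that was nearly the same in both livers. Apob exceeded Mttp, the transfer protein that loads lipid onto it, by 1.22 ± 0.17. The pairs that did not pass were Apoc3 with Apoa4, Apoa4 with Apoa5 (-0.90 ± 0.63), Apoc3 with Apoa5, and Apoc2 with Apoc4 (-0.01 ± 0.09), whose order differed between the livers.

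Of the 10 genes, 7 lie in 2 clusters. On chromosome 9, Apoa1 stood far above the other genes of its cluster. This cluster, from 46228580 to 46271919 on GRCm38, holds Apoa1, Apoc3, Apoa4 and Apoa5 within 43.3 kb. The highest of these 4 exceeded the lowest 64.5-fold in pup 1 and 108-fold in pup 2. Apoc3 lies on the minus strand between Apoa1 and Apoa4, which are on the plus strand, and its level was 56.2-fold below that of Apoa1. The cluster is flanked by Sik3, at a mean of 4.31 TPM, and Zpr1, at 20.5 TPM, so all 4 apolipoprotein genes stood above both flanking genes.

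On chromosome 7, from 19671579 to 19699188, Apoe, Apoc1, Apoc4 and Apoc2 lie within 27.6 kb on the minus strand. Their levels were closer to each other, with the highest 6.19-fold above the lowest in pup 1 and 6.34-fold in pup 2. Apoc4, an apolipoprotein of very-low-density lipoprotein, was at 2861 ± 62.4 TPM, next to Apoc2 in level as on the chromosome. The flanking genes Clptm1 and Tomm40 stood at 24.9 and 72.2 TPM. Of the remaining genes, Apoa2 on chromosome 1 has as neighbours Tomm40l, at 5.34 TPM, and Fcer1g, the Fc receptor gamma chain, at 152 TPM.

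Overlapping annotation limits some of these values. The antisense gene Gm10680 overlaps Apoa4 by 839 nt and was given 219 counts in pup 1 and 146 in pup 2, against 22590 and 13659 for Apoa4. In GENCODE M21 the antisense gene Gm47544 overlaps Apoa5 by 1331 nt, and no value of it was used here. Without strand, reads from a gene and its antisense partner cannot be told apart, and the sources used here do not state whether strand was used in counting.

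The transcript tables gave the same leading transcript in both livers for 10 of 10 genes. In 6 genes the leading transcript held 90% or more of the gene's TPM in both livers. The leading transcript held 99.63% of Apoa1 in each liver, and 98.61% and 98.68% of Apoc3. Apoa4 and Apom have 1 transcript each. Over all 35 transcripts, 16 held at least 10% of their gene in both livers, and the largest change between the livers was 4.25 percentage points.

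Apoa2 had the most even mixture. Its leading transcript, of 492 nt, held 59.18% of its TPM in pup 1 and 59.11% in pup 2. A transcript of 518 nt held 25.34% and 24.57%, and one of 458 nt held 13.75% and 14.81%. Each has 4 exons. The 518 nt transcript shares 489 nt with the leading one and starts 28 nt upstream of it, so few reads can separate them. The leading Apoe transcript held 85.61% and 85.64%, and another, which in GENCODE M21 starts 180 nt upstream, held 12.43% and 12.71%. This other transcript is 1386 nt as deposited and 1408 nt in M21, so the start that was counted may differ.

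Apob and Apoc2 were the genes whose transcript shares moved most. The full-length Apob transcript, of 13934 nt and 29 exons, held 69.56% of Apob TPM in pup 1 and 73.52% in pup 2. A transcript of 1118 nt and 9 exons that starts at the same base and ends 29017 nt earlier on the chromosome held 30.23% and 26.25%. It shares all of its 1118 nt with the full-length transcript and received only 3.10% and 2.56% of the reads of Apob, so its share per length rests on reads near the 5′ end. Transcripts of Apob over 10000 nt alone stood at 130.6 and 111.1 TPM. Taken by these transcripts, Apob was at 121 ± 13.8 TPM and its log2 ratio to Mttp was 0.74 ± 0.12. On the same basis Apoa1 exceeded Apob by 7.64 ± 0.17 and Apoe exceeded it by 7.18 ± 0.17 on the log2 scale.

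The leading Apoc2 transcript, of 631 nt, held 66.21% and 68.84% of Apoc2 TPM, and another of 569 nt held 20.66% and 16.41%. For both transcripts the authors' credible intervals overlapped between the livers. Those of the 569 nt transcript were 375 to 676 TPM in pup 1 and 347 to 518 TPM in pup 2. Another 13.0% and 14.7% came from 2 transcripts that GENCODE M21 starts upstream, within Apoc4, and assigns to the readthrough gene Gm44805. Their lengths are 589 and 500 nt as deposited but 587 and 765 nt in M21, so the starts that were counted may differ. Without these 2 transcripts Apoc2 was at 2534 and 2353 TPM (2443 ± 128). Its log2 ratio to Apoc4 was then -0.23 ± 0.11, and the log2 ratio of Apoc3 to Apoc2 was -2.52 ± 0.11.

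**Figure D3:**
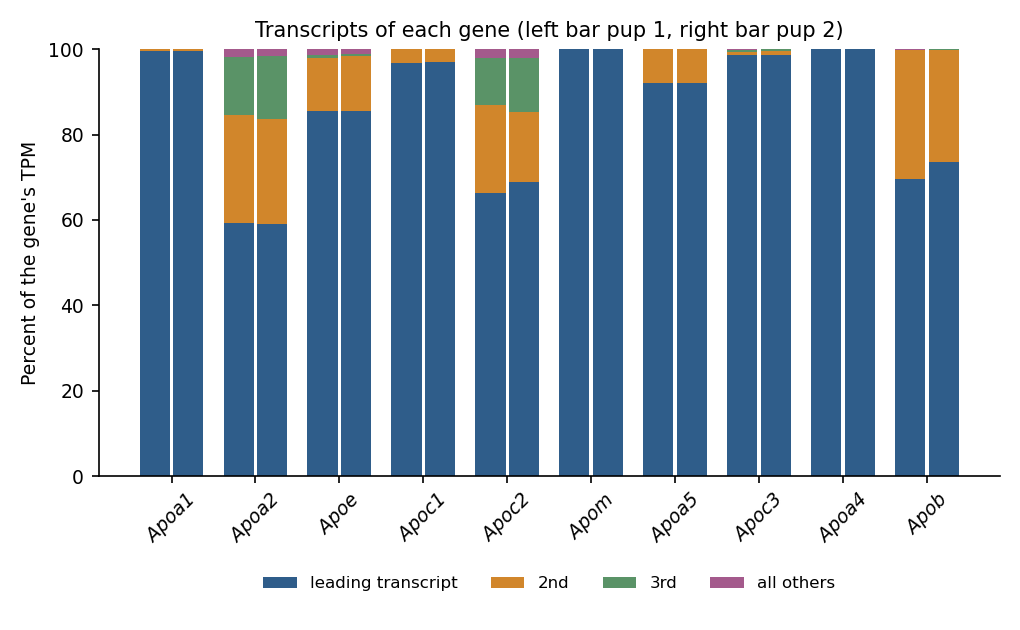
Percent of each gene's TPM held by its transcripts, with pup 1 in the left bar and pup 2 in the right bar of each gene. The leading transcript fills nearly the whole bar of Apoa1, Apom, Apoc3 and Apoa4, whereas in Apoa2, Apoc2 and Apob it holds between 59.11% and 73.52%.

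Differences between the littermates are given as the log2 ratio of TPM + 1, pup 2 relative to pup 1; the added 1 makes changes of low genes look smaller. None of the 10 genes was at least 2-fold apart with non-overlapping credible intervals, against 80 of 12711 genes, or 0.629% (0.0629% lower and 0.566% higher in pup 2). The median log2 ratio of the 10 genes was -0.0073, with 5 genes lower and 5 higher in pup 2, and the median over all genes was -0.051. Of the 12711 genes tested, 8009 were lower and 4658 higher in pup 2 by TPM. With counts scaled by TMM the median over all genes was 0.0045. The comparison is between 2 animals with 1 library each, so it has no replicate check.

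Apoa4 had the largest difference. It was 1.66-fold higher in pup 1, a log2 ratio of -0.73, and its rank moved from 331 in pup 1 to 525 in pup 2. Among the 962 genes at a mean of 100 to 1000 TPM, 6 genes, or 0.624%, were as far apart or farther, Apoa4 included. The others, named after their values were seen, were G6pc, Pck1 and Hamp, lower in pup 2, and Tpm1 and Acta1, higher in pup 2. G6pc, which releases glucose from its phosphate, went from 181 to 85.2 TPM. Pck1, the gluconeogenic enzyme, went from 617 to 361 TPM, and Hamp, which encodes the iron hormone hepcidin, from 224 to 129 TPM. Acta1, a skeletal muscle actin and one of the muscle markers, went from 16.3 to 310.2 TPM.

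Smaller differences had the same direction in Apob and Apoc3 and the opposite one in Apoa5. Apob had a log2 ratio of -0.31, a size reached or passed by 3.33% of the 962 genes, and Apoc3 one of -0.27, reached or passed by 5.2%. By its transcripts over 10000 nt alone, Apob had a log2 ratio of -0.23, to which the share of 3.33% does not apply. Apoa5 was higher in pup 2 by 0.15, a size reached or passed by 15.5%. Within the chromosome 9 cluster, therefore, Apoc3 and Apoa4 were lower in pup 2, Apoa5 was higher, and Apoa1 had a ratio of 0.01. The 6 genes above 1000 TPM had ratios between -0.08, for Apoc2, and 0.05, for Apoc1.

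The authors' credible intervals, which cover counting and read assignment but not variation between animals, did not overlap for 8 of the 10 genes. They overlapped for Apoe and Apom. Of the 8, Apoa4, Apob, Apoc3 and Apoc2 were lower in pup 2, against 13.8% of all genes, and Apoa1, Apoa2, Apoc1 and Apoa5 were higher, against 6.27%. Over both directions 20.1% of all genes had such intervals. This share was larger at higher levels. It was 44.3% among genes at 100 TPM or more, 41.6% at 100 to 1000 TPM, where 4 of 4 members had them, and 67.5% at 1000 TPM or more, where 4 of 6 did. Above 1000 TPM the members' share was thus near the background. The common biological coefficient of variation between the livers was 0.118 over 15420 genes in edgeR. The value fitted at the abundance of each member was lower, from 0.0845 for Apoa1 to 0.0855 for Apoc3.

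**Figure D4:**
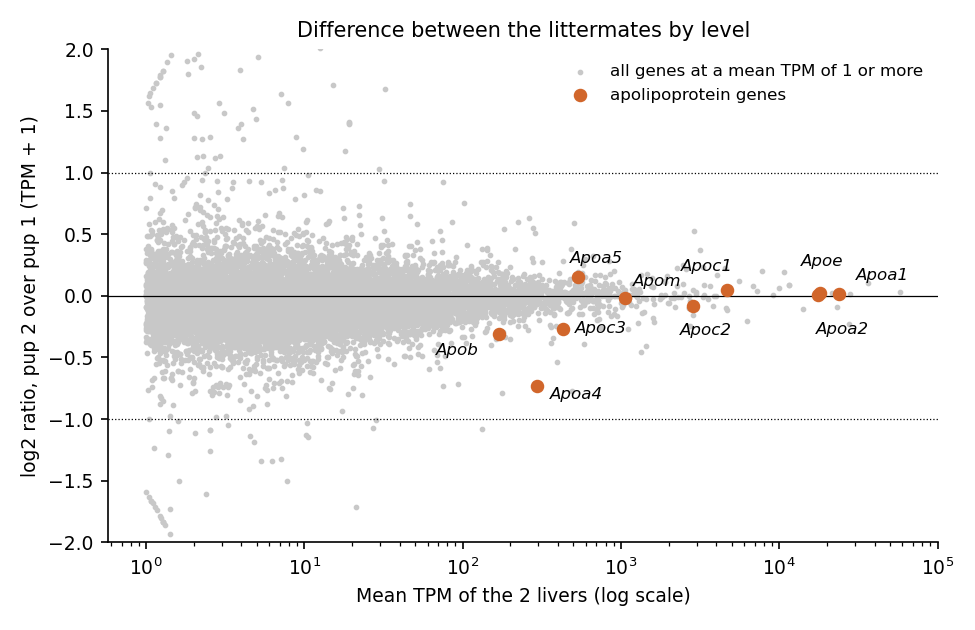
Log2 ratio of pup 2 over pup 1 on TPM + 1 against the mean TPM (log scale), with all 12711 genes tested in grey and the apolipoprotein genes in orange. Dotted lines mark a 2-fold difference and 64 genes lie beyond the plotted range; Apoa4 at -0.73 is the lowest of the apolipoprotein genes and none reaches a line.

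Markers of cell types that could add to these values were counted beside them. Of 7 enterocyte markers, cells of the other organ that makes Apoa4, Apob and Apoc3, 1 was detected at 1 TPM or more in both livers. It was Fabp2, an intestinal fatty acid binding protein gene, at 37.1 and 42.1 TPM. Alpi, Cdx1 and Cdx2 had 0 counts in both livers, and the summed level was 37.3 and 42.2 TPM. None of the 4 kidney tubule markers was detected, with Umod and Slc34a1 at 0 counts. Among the 5 markers of yolk sac visceral endoderm, another source of apolipoproteins, Amn stood at 0.41 and 0.18 TPM, and the other 4 are also liver genes, Apoa4 among them.

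Macrophages are a source of Apoe in many tissues. All 8 macrophage and Kupffer cell markers were detected, with a summed level of 286 TPM in pup 1 and 269 TPM in pup 2. Marker levels do not give the Apoe mRNA that these cells hold, and their part in the level of Apoe was not tested. Of the 6 hepatocyte markers, 5 were lower in pup 2 and 1, Fgb, was higher, with a median log2 ratio of -0.099. By TPM most genes were lower in pup 2, 8009 of the 12711 tested, but this depended on the scaling. The median log2 ratio over all genes was -0.051 by TPM and 0.0045 with counts scaled by TMM. The part of the hepatocyte, muscle and pancreas markers in the differences of Apoa4, Apob and Apoc3 was not tested.

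The genes listed as further apolipoproteins were mostly lower in level. The list also took in Apobr, Apoo and Apool, which share the name, and its counts include them. Of 13, 10 were detected. Apoh, the beta-2 glycoprotein that binds phospholipid, led at 2982 ± 40.6 TPM, followed by Apoc4 and by Apof, known in humans as an inhibitor of lipid transfer, at 728 ± 22.9 TPM. The lowest were Saa2, an acute phase apolipoprotein, at 0.165 TPM, and Apod, a lipocalin, at 0.09 TPM. Saa3, another serum amyloid gene, went from 4.55 TPM (70 counts) to 10.4 TPM (161 counts) and was the only gene of the list at least 2-fold apart. Of the 10 genes tested, intervals did not overlap for 2 lower and 3 higher in pup 2, against 13.8% lower and 6.27% higher over all genes, and the median log2 ratio was 0.01, against -0.051 over all genes.

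The machinery that assembles, secretes and edits apolipoprotein B was detected in full, with 13 of 13 genes. P4hb, the shared subunit of the microsomal triglyceride transfer complex and a general disulfide isomerase, led at 613 ± 12.1 TPM. Sar1b, the GTPase of the vesicles that export large particles, was at 178 ± 0.467 TPM, and Cideb, which lipidates very-low-density lipoprotein, at 167 ± 0.0354 TPM. Mttp itself was at 73.8 and 70.4 TPM. The editing enzyme Apobec1 and its RNA-binding cofactor A1cf were the lowest of the list, at 10.2 ± 0.396 and 5.81 ± 0.573 TPM, so mRNA of the deaminase that acts on the codon printed above was detected in both livers. Intervals did not overlap for 3 of the 13 genes, against 20.1% of all genes, so this share was near the background. All 3 were lower in pup 2, as were 13.8% of all genes, and the median log2 ratio was -0.07.

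Of 15 genes that remodel lipoproteins in plasma, 14 were detected. Pon1, the paraoxonase bound to high-density lipoprotein, was at 460 ± 30.8 TPM, and Lcat at 292 ± 12.8 TPM. Abca1, the transporter that lipidates apolipoprotein A-I, was at 9.12 ± 0.70 TPM, and endothelial lipase, Lipg, was below 1 TPM, at 0.075 TPM. Lpl, which encodes lipoprotein lipase and is named outside the rule as the enzyme that Apoc2 activates, was at 160 and 163 TPM. Of the 14 genes tested, intervals did not overlap for 4 lower and 1 higher in pup 2, against 13.8% lower and 6.27% higher over all genes. The median log2 ratio was -0.05, that of all genes.

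Of 12 receptors and their regulators, 10 were detected, and all 12 stood below each of the 10 apolipoprotein genes in TPM. The heparan sulfate proteoglycan Sdc1, a remnant receptor of liver, was at 94.4 ± 9.60 TPM, the high-density lipoprotein receptor Scarb1 at 94.1 ± 1.98 TPM and the receptor chaperone Lrpap1 at 48.7 ± 4.67 TPM. Vldlr, at 0.93 TPM, and Lrp8, at 0.545 TPM, both receptors for Apoe in other tissues, were not detected by the rule. Intervals did not overlap for 2 of the 10 genes tested, both lower in pup 2, against 20.1% of all genes in either direction and 13.8% lower, and the share was near the background. The median log2 ratio was -0.07.

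All 20 listed transcription factors were detected. Creb3l3, an activator of Apoa4 and Apoc2, and Ppara, the fatty acid receptor, led at 158 ± 1.36 and 153 ± 11.1 TPM, followed by the orphan receptor Nr2f6 at 37.0 ± 4.99 TPM. Nr5a2 and Nr1d1 were lowest, at 2.76 ± 0.0566 and 2.69 ± 1.37 TPM. Of these 20, intervals did not overlap for 5 lower and 5 higher in pup 2, against 13.8% lower and 6.27% higher over all genes. None was called 2-fold apart by the rule on TPM + 1, and the median log2 ratio was -0.03. Hnf4a, whose type of site was matched upstream of Apoa4, was at 24.1 and 21.8 TPM. The largest ratio of the list was that of Nr1d1, which went from 3.66 to 1.72 TPM, a log2 ratio of -0.78. Its TPM without the added 1 differed by more than 2-fold, and its intervals did not overlap. Next in size were Cebpa, a hepatocyte C/EBP factor, from 16.4 to 27.8 TPM, and the coactivator Ppargc1a, from 6.08 to 3.64 TPM. Srebf1 went from 18.55 to 26.74 TPM and Nr0b2 from 28.68 to 38.41 TPM. These differences were picked out after the values were seen.

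**Figure D5:**
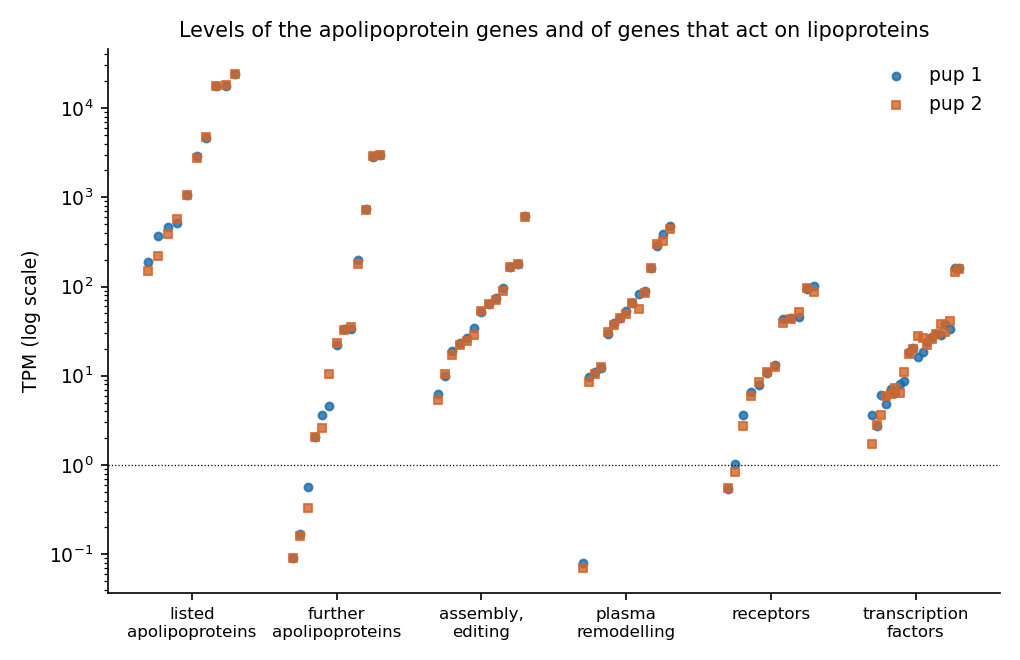
Level in TPM (log scale) of each gene of the 10 listed apolipoproteins and of 5 further lists, with a circle for pup 1 and a square for pup 2, ordered by level within a list. The dotted line marks 1 TPM; the listed apolipoproteins lie between 151 and 24077 TPM, and the genes of the receptor list all lie at 101.2 TPM or below.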

How the data were processed

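Total RNA-seq of 2 newborn livers was available as 1 gene table and 1 transcript table per library. The authors deposited expected counts, which are estimates and need not be whole numbers. TPM was deposited by the authors as reads per effective length scaled to a fixed total, and FPKM, deposited by the authors beside it, served as an alternative. The deposited percent of gene TPM per transcript gave transcript shares. The credible bounds, which the authors deposited as a signal on the TPM scale, belong to a posterior mean estimate that can differ from TPM for abundant genes; their level is not stated in the file headers. Notes that the authors deposited beside the tables name mm10 and GENCODE M4; the aligner and counter are not given in the sources used. Per the labels' protocols, RNA was extracted with a mirVana kit, and a manual of a low-input cDNA kit is cited; how cDNA was primed was not settled. Symbols and coordinates came from GENCODE M21 on GRCm38, matching 42462 of 43346 Ensembl genes.

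The 10 genes, the lists and the pairs were chosen with earlier results of these data known. In each list the 3 highest and 2 lowest genes and any at least 2-fold apart were named, besides genes beside the members; some genes that the rule names are not reported here. Genes were called 2-fold apart at a log2 ratio of TPM + 1 of 1 or more in size, a mean TPM of 1 or more and non-overlapping credible intervals. For the spread, edgeR 4.0.16 (R 4.3.3) was run on expected counts rounded to whole numbers; DESeq2 1.42.0 served only for size factors. Other steps used Python 3.11.15, pandas 2.3.3, numpy 2.4.6 and matplotlib 3.10.9. The 2-fold rule and the edgeR spread were tested on simulated data. Values are mean ± SD of 2 littermates, and the spread covers these samples only. Intervals cover counting and assignment error only: without molecular identifiers, reads cannot be taken for single molecules.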

Additional observations from a re-analysis of the deposited data

How the results depend on the processing

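The summed share of TPM, 6.94%, was 6.83% by posterior mean TPM, 8.11% without globin genes and 4.71% by expected counts; by single livers it ran from 6.92 to 6.96%. The number of all genes at least 2-fold apart, 80, was 187 at a fold of 1.5 and 22 at a mean TPM of 10 or more. At a fold of 1.5 the number of apolipoprotein genes apart was 1, Apoa4. The number at 1000 TPM or more was 6 in either liver alone, 5 by FPKM, 7 at a threshold of 500 and 5 at 2000. The median log2 ratio of the 10 genes ran from -0.0073 to 0.061 (TMM) over the scalings, beside -0.051 and 0.0045 for all genes. The sign of Apom changed (-0.02 to 0.05) and that of the other 9 genes did not. Apoa4 stayed between -0.73 and -0.67, Apoc3 between -0.27 and -0.20, and Apob between -0.31 and -0.17. Values without the short Apob and the readthrough Apoc2 transcripts, a choice made after seeing the data, stand in the report. The counts of pairs and neighbours apart need an SD and have no value for 1 liver. No paired analysis was possible because there is 1 group. The difference between the pups has no replicates, an exact sign permutation of a gene pair cannot go below 0.5, and the spread rests on a single pair of littermates.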
